A study of Mus musculus with 8 samples.

Results

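The promoters described here carried the strongest H3K27ac in both wild-type libraries of a mouse pancreatic cancer data set. They were chosen as the rows of the deposited table in the top 5% of each of the 2 wild-type (WT) H3K27ac libraries and under the top 10% of the WT H3K27me3 library. The rule selected 703 of 25450 rows, which are 701 of 25251 genes (2.78%) once rows of the same gene are joined. The thresholds were 28.8 signal per kilobase (kb) in the WT H3K27ac library not labelled vitro, 49.5 in WT H3K27ac vitro and 24.6 in WT H3K27me3.

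The cells were pancreatic ductal adenocarcinoma (PDAC) cells of C57BL/6 background, either Setd2 knockout (KO) or WT, and CUT&Tag used antibodies to H3K27ac, H3K27me3 and H3K36me3. H3K27ac was measured at promoters in a KO and a WT library labelled vitro and in another such pair; H3K27me3 was measured at promoters and H3K36me3 over gene bodies, each in KO and WT. By the sample labels these are cultured cells, whereas the title of the series mentions sorting from tumours grown orthotopically; the pair without vitro in its label is therefore called the unlabelled pair. Each of the 8 groups was 1 library, so no difference given here has a replicate check or a test, the authors' scaling factor is not stated, so a difference shared by a whole library cannot be read from the values, and the labels do not say how many clones each line came from. Setd2 itself was not selected, with H3K27ac of 25.1 in KO and 15.6 in WT, and 18.8 in KO vitro and 19.4 in WT vitro. Its H3K27me3 was 6.05 in KO and 2.41 in WT, and its gene body H3K36me3 was 2.32 in KO and 2.38 in WT. None of these values checks the knockout, since no transcript or protein was measured.

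H3K27ac is an acetyl mark that p300 and CBP place on the histones of active promoters and enhancers, and very strong or broad H3K27ac is found at housekeeping genes and at genes that set the identity of a cell. H3K27me3 is placed on the same lysine by the Polycomb complex PRC2 at repressed genes, so the same histone tail cannot carry both marks. Setd2 is the methyltransferase that trimethylates lysine 36 of histone H3 over transcribed gene bodies. In CUT&Tag an antibody guides a transposase to the mark, and the released fragments are sequenced.

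The promoter sequences of 6 of the 12 highest-ranked genes that the results name are shown because they differ widely in base composition. They are the 250 bases before the RefSeq start in GRCm38.p6, written 5′ to 3′ on the gene's own strand. Capitals mark matches, on either strand, to the motifs that were searched for.
Steap2 (chr5:5694569-5694818, minus strand): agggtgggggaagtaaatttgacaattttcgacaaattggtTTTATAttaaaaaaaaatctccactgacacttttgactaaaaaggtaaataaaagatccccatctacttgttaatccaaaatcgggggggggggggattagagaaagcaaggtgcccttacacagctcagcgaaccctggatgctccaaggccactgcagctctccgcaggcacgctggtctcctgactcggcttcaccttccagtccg
Junb (chr8:84978749-84978998, minus strand): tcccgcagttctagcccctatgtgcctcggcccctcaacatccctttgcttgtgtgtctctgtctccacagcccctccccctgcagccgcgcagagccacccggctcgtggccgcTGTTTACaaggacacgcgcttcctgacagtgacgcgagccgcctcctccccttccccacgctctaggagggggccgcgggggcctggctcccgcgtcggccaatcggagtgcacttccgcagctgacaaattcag
Irf2bp2 (chr8:126593987-126594236, minus strand): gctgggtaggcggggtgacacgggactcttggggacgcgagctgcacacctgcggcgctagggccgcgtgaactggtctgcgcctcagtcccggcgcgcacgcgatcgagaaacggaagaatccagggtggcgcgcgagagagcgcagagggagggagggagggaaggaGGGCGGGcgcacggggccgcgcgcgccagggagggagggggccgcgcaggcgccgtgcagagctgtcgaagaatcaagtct
Mnt (chr11:74830674-74830923, plus strand): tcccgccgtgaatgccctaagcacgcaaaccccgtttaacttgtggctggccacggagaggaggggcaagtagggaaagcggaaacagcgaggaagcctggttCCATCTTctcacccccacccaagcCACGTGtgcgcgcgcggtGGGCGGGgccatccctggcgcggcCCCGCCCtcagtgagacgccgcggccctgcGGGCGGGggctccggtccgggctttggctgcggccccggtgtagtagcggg
S100a6 (chr3:90612644-90612893, plus strand): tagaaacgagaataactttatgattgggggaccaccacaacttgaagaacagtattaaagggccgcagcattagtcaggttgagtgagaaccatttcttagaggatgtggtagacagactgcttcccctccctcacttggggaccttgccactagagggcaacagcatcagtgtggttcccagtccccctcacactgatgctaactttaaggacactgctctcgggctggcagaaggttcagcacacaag
Brd2 (chr17:34122608-34122857, minus strand): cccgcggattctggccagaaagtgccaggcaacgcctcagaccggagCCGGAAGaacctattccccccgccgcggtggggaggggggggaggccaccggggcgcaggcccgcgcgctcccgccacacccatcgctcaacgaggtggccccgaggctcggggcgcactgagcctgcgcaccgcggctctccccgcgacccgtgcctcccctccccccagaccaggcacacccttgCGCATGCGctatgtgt
Among these sequences, Brd2 had 73.6% GC and S100a6 had 50%. Irf2bp2 held 32 CG dinucleotides and S100a6 held 3. The capitals mark a TATA box motif (TATAAA) in Steap2 and a FOX motif (TGTTTAC) in Junb. Irf2bp2 has a single GC box (GGGCGGG). Mnt has 3 GC boxes, an E-box (CACGTG) and a YY1 motif (AAGATGG). Brd2 has an ETS motif (CCGGAAG) and overlapping matches to the NRF1 core (GCATGCG). S100a6 had no match to any of the 12 motifs in this stretch.

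RefSeq held a promoter for 555 of the 701 genes and for 18728 of all genes, each with 250 bases before and 50 after the start. The selected promoters were GC-rich, with a median of 64.0% GC (quartiles 59.3 and 69.3%) against 56.3% over all promoters. Their median ratio of observed to expected CpG was 0.797, against 0.57 over all promoters. A GC box was found in 57.8% of them and in 33.5% of all promoters. The ETS motif was found in 16.9% against 11.8%, and the CCAAT box (AGCCAAT) in 14.1% against 9.61%. The TATA box was found in 6.13% against 13.1%, FOX in 1.26% against 3.0%, TEAD (ACATTCC) in 1.26% against 3.35% and the motif AGATAAG of GATA factors in 1.8% against 2.64%. The AP-1 motif (TGANTCA) was found in 5.77% against 7.37%. The shares were close for the YY1 motif (6.49% against 6.43%), the E-box (8.65% against 8.08%), the CRE (TGACGTC, 5.05% against 4.03%) and the NRF1 core (5.95% against 4.52%). Part of this is shared with weaker promoters: other genes above the median of WT H3K27ac had a median of 61.3% GC and a CpG ratio of 0.774, with a GC box in 48.9%, a CCAAT box in 11.3% and a TATA box in 6.91%. Against these genes the share of selected promoters was lower for the ETS motif (18.5% in the other genes), the CRE (5.84%), the NRF1 core (6.67%), the E-box (10.4%) and YY1 (7.26%). It was higher for the AP-1 motif (4.99% in the other genes) and the GATA factor motif (1.57%), which is the opposite of the comparison with all promoters. A match is a string of letters and not a bound site.

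Of the 701 genes, 600 were protein coding (85.6%, against 82.5% of all genes), 61 were long non-coding RNA genes, 32 microRNA genes, 6 snoRNA genes and 2 transcribed pseudogenes. Many share a promoter window: the genes fall into 582 groups with overlapping windows or equal values, of which 114 hold 233 genes. The 54 genes without coordinates were grouped by equal values only. Gata6os was therefore not grouped with Gata6, and sharing is understated. The genes were short, with a median span of 12.8 kb against 20.9 kb over all genes with coordinates. Transcription factors of the bZIP family, which bind DNA as dimers of basic leucine zippers, made up 1.70% of the genes with a family entry and 0.253% of all such genes. The 11 bZIP genes were Jun, Junb, Jund, Fosl2, Atf4, Ddit3, Xbp1, Nfe2l1, Nfe2l2, Mafg and Mafk. Just inside the threshold were Hdgf, Aqp1, Arpc1b, Fmc1 and Tssk6, with WT H3K27ac of 28.8 in each. Just outside were Fam234a and Gnb2, with 49.5 in WT vitro, Glud1 and Myl6, with 28.7 in WT without the label, and Dnajb1, with 49.4 in WT vitro. A further 7 genes passed both H3K27ac thresholds but not the H3K27me3 limit, among them Dusp4, a MAP kinase phosphatase, and Onecut2, a liver and pancreas homeobox factor.

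The genes were selected on WT H3K27ac and WT H3K27me3, so their levels in those libraries follow from the choice and are given as a description. The median H3K27ac signal of the 701 genes was 60.0 per kb in KO and 38.4 in WT in the unlabelled pair, against 8.33 and 7.54 over all genes. In the vitro pair it was 66.7 in KO and 68.0 in WT, against 6.69 and 6.90 over all genes. The 701 promoters held 14.2% of the summed promoter signal in KO vitro and 14.8% in WT vitro. Median H3K27me3 was 3.30 in KO and 2.30 in WT, against 3.85 and 3.23 over all genes. H3K36me3 did not enter the choice: over the 240 selected genes of 20 kb or more its median was 6.18 in KO and 6.52 in WT, against 3.97 and 4.18 over all genes of that span.

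**Figure D1:**
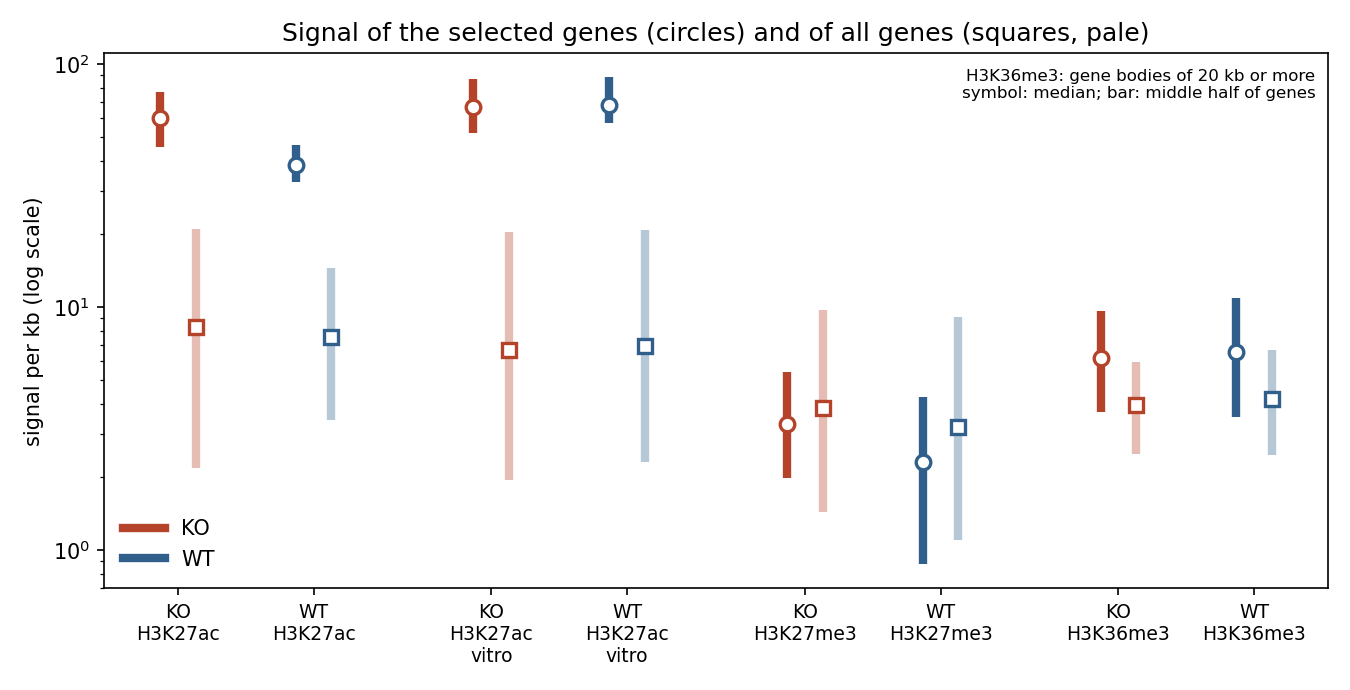
Signal per kb on a log axis in the 8 libraries. Circles and dark bars are the selected genes, squares and pale bars all genes. Symbols are medians and bars span the quartiles. The promoter marks cover the 701 selected genes. H3K36me3 covers only genes of 20 kb or more, of which 240 were selected. The selected genes had median H3K27ac of 60.0 in KO and 38.4 in WT in the unlabelled pair, and their H3K36me3 medians lay above those of all genes in both genotypes.

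Leaving out clone, predicted and small RNA host symbols (A630001O12Rik and Mir22hg rank among them), the 12 highest promoters by mean rank in WT belonged to Cdk6, Steap2, Junb, Irf2bp2, Src, Neat1, Mef2d, Mnt, S100a6, Nr1d1, Brd2 and Msln. Cdk6, the kinase that drives cells through G1 with D-type cyclins, had H3K27ac of 154 in KO and 107 in WT, and of 261 in KO vitro and 428 in WT vitro. Steap2, a metalloreductase, had 109 in KO and 78.9 in WT, and 199 in KO vitro and 374 in WT vitro. Both lie near the start of chromosome 5 and, on the authors' scale, were lower in KO in the vitro pair only. Junb, a subunit of AP-1, had 112 in KO and 85.1 in WT, and 176 in KO vitro and 178 in WT vitro. Src, the founding member of its family of tyrosine kinases, had 112 in KO and 68.4 in WT, and 161 in KO vitro and 180 in WT vitro. The difference between the genotypes was thus small for both genes in the vitro pair. Mnt, a repressor that shares the partner Max with Myc, had 156 in KO and 85.6 in WT, and 151 in KO vitro and 146 in WT vitro. Nr1d1, the clock repressor REV-ERB alpha, had 158 in KO and 72.9 in WT, and 201 in KO vitro and 132 in WT vitro. Msln, the mesothelin gene, is a known surface antigen of pancreatic cancer and had 90.04 in KO and 66.9 in WT, and 132 in both vitro libraries. Neat1, the RNA that scaffolds paraspeckles, had 92.9 in KO and 68.6 in WT, and 138 in KO vitro and 174 in WT vitro.

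Immediate early and cytoskeletal genes had the highest shares of selected promoters among the 30 gene lists. Of 26 immediate early and AP-1 genes in the table, 11 were selected (42.3%, against 2.78% of all genes). Ier2, an early growth factor response gene, had H3K27ac of 81.9 in KO and 49.3 in WT, and 127 in KO vitro and 126 in WT vitro. Zfp36, which binds AU-rich mRNAs and speeds their decay, had 83.5 in KO and 53.3 in WT, and 104 in KO vitro and 95.3 in WT vitro. Fosl2, a partner of Jun proteins, had 93.4 in KO and 35.5 in WT, and 146 in KO vitro and 147 in WT vitro. Of 39 targets of YAP and SRF with actin cytoskeleton genes, 15 were selected (38.5%). Actg1, which encodes gamma actin, had 131 in KO and 55.8 in WT, and 158 in KO vitro and 160 in WT vitro. Anxa5, a phospholipid-binding annexin, had 108 in KO and 71.0 in WT, and 120 in KO vitro and 108 in WT vitro. In the unlabelled pair KO exceeded WT at all 11 immediate early and AP-1 genes and at 14 of the 15 cytoskeletal ones, but after quantile normalization of the pair at 4 of 11 and 10 of 15. Over all 701 selected genes it was 626 (89.3%, against 68.1% of all genes measured) as deposited and 247 (35.2%, against 49.3%) after quantile normalization. In the vitro pair KO exceeded WT at 7 of 11 and 10 of 15, with 294 of all 701 (41.9%, against 44.4% of all genes). The direction at the immediate early genes in the unlabelled pair thus depended on the scaling, as it did for the whole set.

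Of 38 epithelial and ductal genes, 8 were selected (21.1%). Krt8, a keratin of simple epithelia, had 82.5 in KO and 37.4 in WT, and 165 in KO vitro and 147 in WT vitro. Krt19, the ductal keratin, had 77.7 in KO and 35.7 in WT, and 144 in KO vitro and 132 in WT vitro. Muc1, a membrane mucin of glandular epithelia, had 42.7 in KO and 53.9 in WT, and 138 in KO vitro and 112 in WT vitro. On the authors' scale both keratins were higher in KO in both settings, and Muc1 was lower without the label and higher in vitro. Over the 8 epithelial genes KO exceeded WT at 7 in the unlabelled pair as deposited and at 2 after quantile normalization, shares near the 89.3% and 35.2% of all selected genes. Esrp2, a splicing factor of epithelial cells, had 40.5 in KO and 33.5 in WT, and 17.9 in KO vitro and 53.6 in WT vitro. Tjp3, a tight junction scaffold, had 36.5 in KO and 35.8 in WT, and 23.9 in KO vitro and 50.05 in WT vitro. Other lists with selected genes were NRF2 targets (4 of 22, with Sqstm1 and Nfe2l2), hosts of small RNAs (4 of 25), MAPK feedback regulators and EGFR ligands (3 of 23, Dusp1, Dusp6 and Spry4), integrated stress response genes (3 of 23, Ddit3, Atf4 and Xbp1) and sterol and fatty acid synthesis genes (3 of 29, Cyp51, Fasn and Srebf1).

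Among groups that most cells express, the share of selected genes lay above the 2.78% of all genes for translation factors (6 of 71, 8.45%), splicing factors (7 of 108, 6.48%), chaperones (4 of 83, 4.82%), cytosolic ribosomal proteins (4 of 85, 4.71%) and subunits of oxidative phosphorylation (3 of 87, 3.45%). It lay below for mitochondrial ribosomal proteins (2 of 78, 2.56%), proteasome subunits (0 of 39) and clustered histones (0 of 66). Of lists for other cell types, 0 of 18 leukocyte, 0 of 12 endothelial, 0 of 17 fibroblast and 0 of 20 acinar genes were selected, and 0 of 1125 olfactory receptor genes. At the 2.78% share of all genes, lists of 12 to 20 genes are too short for a count of 0 to set them apart. Median percentiles of the leukocyte, endothelial, fibroblast and acinar lists were 33.9, 47.7, 58.8 and 67.0 in unlabelled WT H3K27ac. In WT vitro they were 31.6, 38.5, 36.4 and 31.3. Of 7 markers of epithelial tumour cells, 3 were selected (Krt8, Krt18 and Krt19), whereas Epcam had H3K27ac of 11.8 in KO and 7.54 in WT, and 2.57 in KO vitro and 2.87 in WT vitro. Membership follows from WT H3K27ac, so these shares are descriptions and none was tested.

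**Figure D2:**
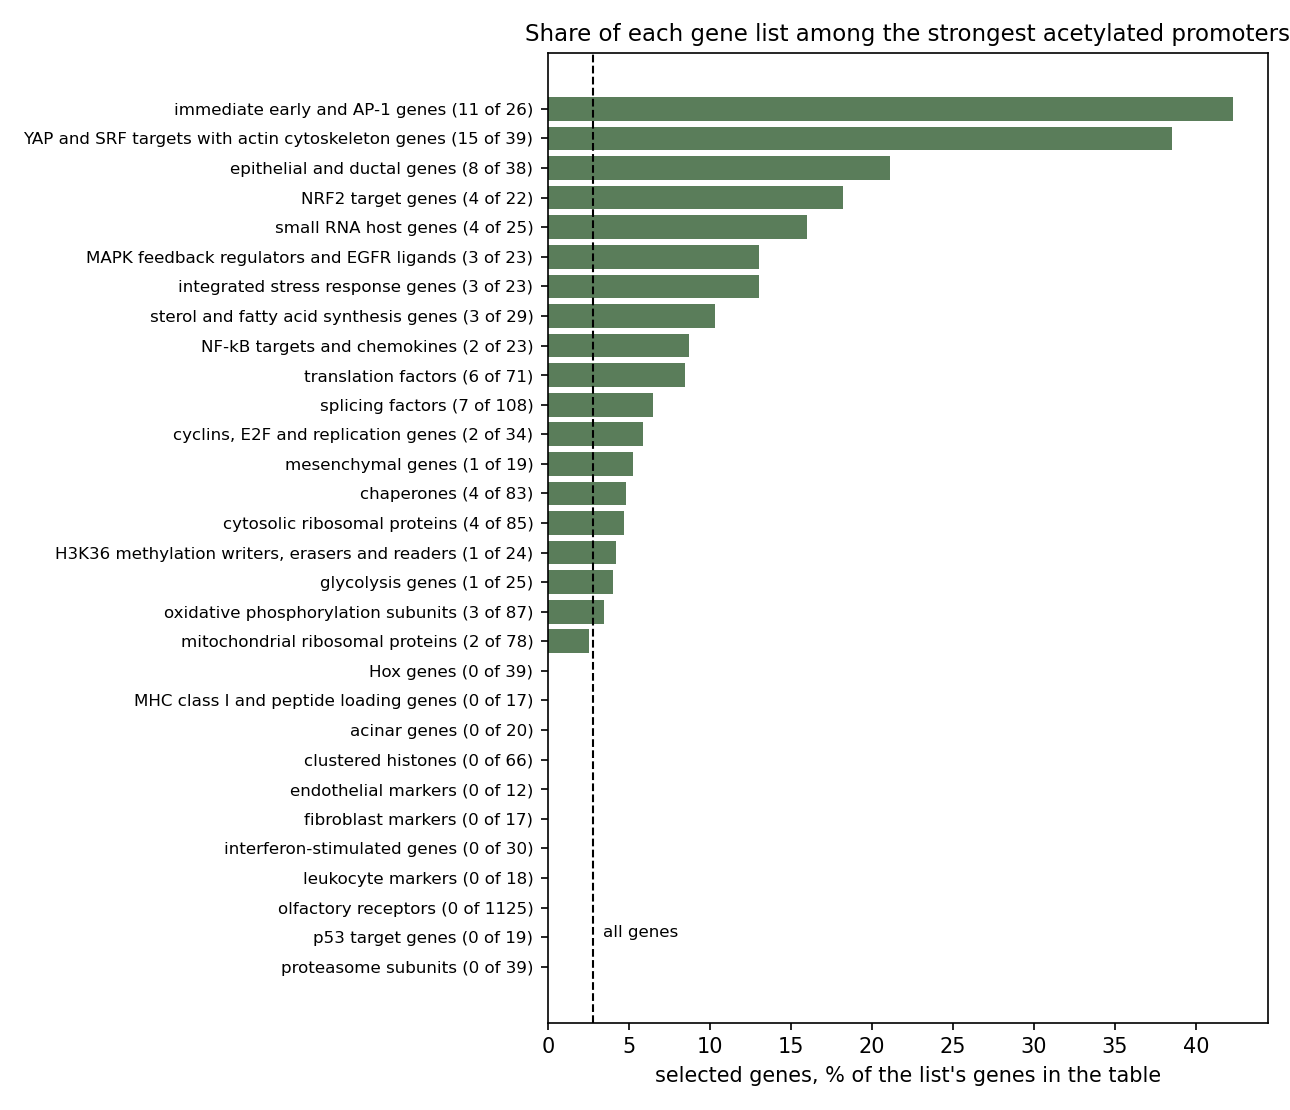
Share of each of 30 gene lists that was selected, in percent of the list's genes in the table, with the counts beside the names and a dashed line at the share of all genes (2.78%). Immediate early and AP-1 genes (42.3%) and YAP and SRF targets with actin cytoskeleton genes (38.5%) had the highest shares.

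The KO libraries did not enter the choice. In the unlabelled KO library 507 of the 701 genes (72.3%) were in the top 5%, a place that 5.05% of all genes held. In KO vitro 538 (76.7%) were in the top 5%, against 5.03% of all genes. In both KO libraries together it was 434 genes (61.9%, exact binomial interval 58.2 to 65.5%), against 2.81% of all genes. The interval treats genes as independent, which genes with a shared window are not. It is taken over genes and not over libraries. No group had a replicate, so the interval leaves out the spread between libraries and does not give the uncertainty of the share. Of the 701 genes, 683 (97.4%) were in the top 20% of both KO libraries. The 324 genes between the top 5% and the top 10% of both WT libraries were in the top 5% of both KO libraries in 6.79% of cases. Of the 566 genes in the top 5% of the unlabelled WT library only, 13.3% were, and of the 545 in the top 5% of WT vitro only, 18.7% were. Applied to the KO libraries, the same rule chose 702 genes, of which 434 were among the 701.

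Ratios of KO over WT are log2 values after a floor, the 25th percentile of the positive values of the pair, was added to both libraries. WT helped choose the genes, which by itself lowers such ratios. In the unlabelled pair the median was 0.57, against 0.32 over all genes. At least 2-fold higher in KO were 95 genes (13.6%, against 13.1% of all genes measured), and 1 was at least 2-fold lower (0.143%, against 4.32%). That gene was the microRNA gene Mir101c, named here for being the only gene in that count. Such low shares were also seen at other strong promoters. At least 2-fold lower were 0.0% of genes between the top 5% and the top 10% of both WT libraries. It was 0.883% for genes in the top 5% of the unlabelled WT library only and 0.183% for those of WT vitro only. The sign of the median depended on the scaling, since quantile normalization gave -0.15, with 247 of the 701 genes above 0 in place of 626. In the vitro pair the median was -0.06, against -0.07 over all genes. KO reached 2-fold over WT in 2 genes (0.285%, against 3.95%) and fell below WT by 2-fold or more in 28 (3.99%, against 3.57%). In the sets just named, in the same order, 0.926%, 0.707% and 0.183% were 2-fold higher in KO vitro. The shares 2-fold lower were 0.926%, 1.59% and 7.89%.

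The highest KO ratios without the vitro label belonged to Nfkb2, Capn2, Lgals3bp, Arpc4, Cox14 and Socs1. Nfkb2, the precursor of the p52 subunit of NF-kB, had 96.3 in KO and 32.7 in WT, and 73.1 in KO vitro and 68.4 in WT vitro. Socs1, an inhibitor of cytokine signalling through JAK kinases, had 111 in KO and 39.5 in WT, and 103 in KO vitro and 60.5 in WT vitro. Capn2, a calcium-dependent protease, had 100.01 in KO and 34.1 in WT, and 89.2 in KO vitro and 51.7 in WT vitro. Socs1 and Capn2 were therefore higher in KO in both settings, and Nfkb2 mainly without the label. In the vitro pair the 2 genes past 2-fold were Tmem63a, a mechanosensitive channel gene, and Tns2, a focal adhesion gene. Tmem63a had 152 in KO vitro and 66.7 in WT vitro, and 64.3 in KO and 34.6 in WT without the label. Tns2 had 120 in KO vitro and 58.1 in WT vitro, and 105 in KO and 60.8 in WT without the label. In both settings together, KO exceeded WT by 1.5-fold or more at 18 genes (2.57%, against 5.24% of all genes with both ratios) and was lower by as much at 5 (0.713%, against 2.28%). Opposite directions past 1.5-fold, KO higher in the unlabelled pair and lower in vitro, were seen at 15 genes (2.14%, against 2.78% of all genes), and the reverse at 0 (against 0.694%). Both counts were taken on the authors' scale, and the direction in the unlabelled pair depended on the scaling. The 5 genes lower in both were Mecom, Rundc3b, Gata6, Gata6os and Myrf.

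Of these 5, all but Rundc3b carried more H3K27me3 in KO; Rundc3b had 9.125 in KO and 11.1 in WT. Mecom, which encodes the zinc finger factor EVI1, had H3K27ac of 21.3 in KO and 41.4 in WT, and 27.5 in KO vitro and 97.6 in WT vitro. Its H3K27me3 was 81.0 in KO and 22.2 in WT, a log2 ratio of 1.80. Gata6, a transcription factor of the pancreatic epithelium whose level separates PDAC subtypes, had H3K27ac of 19.1 in KO and 37.0 in WT, and 30.0 in KO vitro and 56.3 in WT vitro. Its H3K27me3 was 33.4 in KO and 15.2 in WT. Gata6os, the opposite-strand gene at the same promoter, had nearly the same values and adds no separate observation. Myrf, a membrane-bound transcription factor best known from myelinating glia, had H3K27ac of 22.4 in KO and 37.8 in WT, and 12.3 in KO vitro and 54.4 in WT vitro. Its H3K27me3 was 23.9 in KO and 3.84 in WT. Pard6b, a component of the apical polarity complex, had H3K27ac of 34.4 in KO and 36.8 in WT, and 14.1 in KO vitro and 62.6 in WT vitro. Its H3K27me3 was 52.7 in KO and 14.3 in WT, so the difference in H3K27ac was in the vitro pair and that in H3K27me3 was of the opposite sign. Irs2, an adaptor of insulin and IGF signalling, had H3K27ac of 22.4 in KO and 29.4 in WT, and 43.5 in KO vitro and 73.6 in WT vitro, with H3K27me3 of 26.5 in KO and 7.34 in WT. Esrp2 had H3K27me3 of 15.8 in KO and 7.45 in WT, and Tjp3 had 14.5 in KO and 4.93 in WT. Cldn3, a tight junction claudin, had H3K27me3 of 63.4 in KO and 18.4 in WT, while its H3K27ac was 40.7 in KO and 29.3 in WT, and 56.4 in KO vitro and 75.5 in WT vitro.

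Lower H3K27ac and higher H3K27me3 did not go together over the set as a whole. Of the 28 genes at least 2-fold lower in KO vitro, 23 lay outside the start of chromosome 5. Of these, 20 had a measured H3K27me3 ratio: 11 (55.0%) exceeded WT by 1.5-fold or more in KO and 0 were lower by as much, while 225 of 554 selected genes (40.6%, against 30.1% of all genes measured) were higher. Of all 549 genes of the table that were 2-fold lower in KO vitro and had such a ratio, 39.9% were. The 11 include pairs of genes with close values, Mir192 with Mir194-2 and Esrp2 with 1810019D21Rik, which are not separate observations. Over these 554 genes the rank correlation of the vitro H3K27ac ratio with the H3K27me3 ratio was -0.05, as a description over genes that partly share windows. Hgfac, the protease that activates hepatocyte growth factor, had H3K27ac of 17.2 in KO vitro and 78.0 in WT vitro, and 72.2 in KO and 56.1 in WT, with H3K27me3 of 3.90 in KO and 4.71 in WT. On the authors' scale the H3K27ac of Hgfac was therefore lower in KO vitro and higher in KO without the label, at low H3K27me3. Its log2 ratio without the label, 0.35, was close to the median of all genes (0.32) and below that of the selected genes (0.57). The direction of Hgfac in the unlabelled pair is therefore read on the authors' scale only. Klf3, a transcriptional repressor, had 34.6 in KO and 61.2 in WT, and 83.5 in KO vitro and 87.3 in WT vitro, with H3K27me3 of 4.18 in KO and 0.33 in WT.

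The largest vitro differences toward lower KO signal were at a pair of neighbouring microRNA genes on chromosome 19, named after their values were seen. Mir192 had H3K27ac of 12.6 in KO vitro and 71.4 in WT vitro, and 30.6 in KO and 34.9 in WT without the label. Mir194-2 had 13.1 in KO vitro and 72.1 in WT vitro, and 29.0 in KO and 34.6 in WT without the label. The values of both are close, and RefSeq places the mature sequences near each other, at chr19:6264857-6264877 and chr19:6264658-6264679 on the plus strand, so they are not separate observations. These microRNAs are processed from a single primary transcript and are abundant in intestinal and hepatic epithelium. Their mature 5p sequences from RefSeq (GRCm38.p6) are printed with the seed, bases 2 to 8, in capitals, and the seeds differ.
mmu-miR-192-5p: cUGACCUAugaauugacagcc
mmu-miR-194-5p: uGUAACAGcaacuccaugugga

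**Figure D3:**
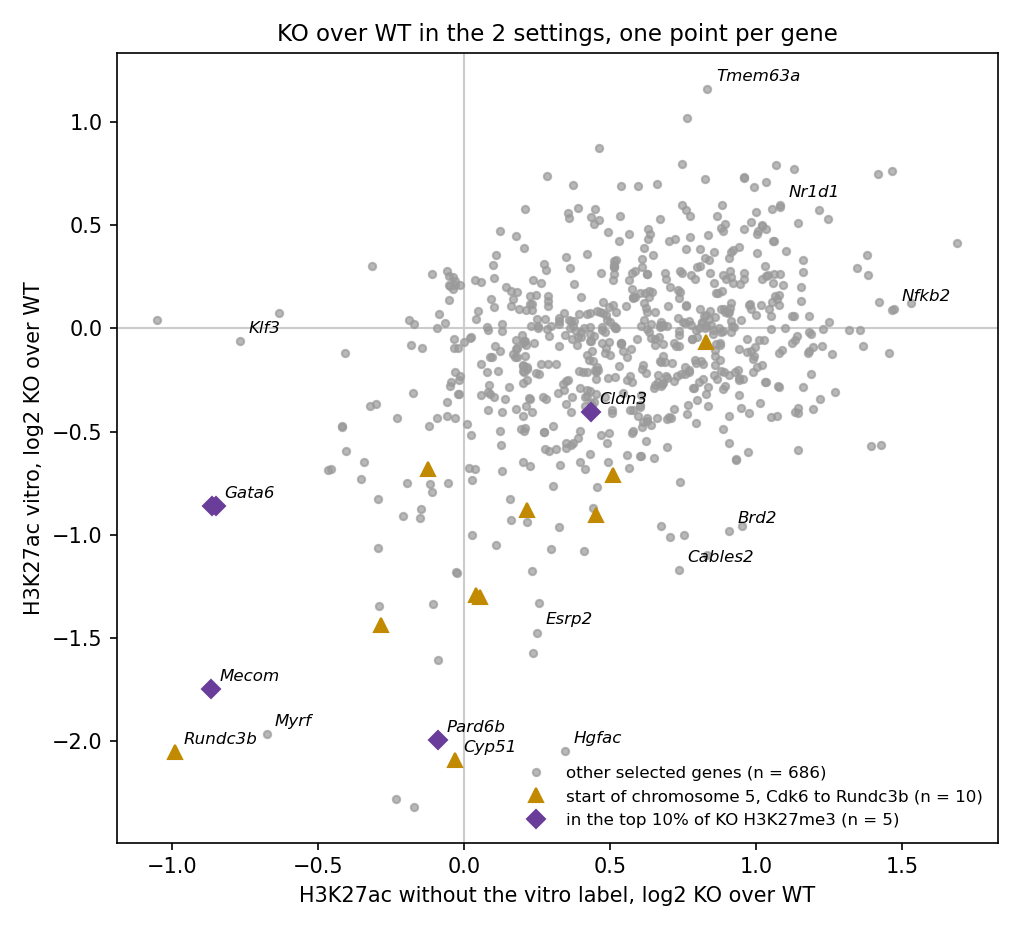
Each point is a selected gene, with the log2 KO over WT ratio of H3K27ac of the unlabelled pair on the horizontal axis and that of the vitro pair on the vertical axis. Triangles are the 10 genes at the start of chromosome 5 and diamonds the 5 genes in the top 10% of KO H3K27me3; most points lie right of 0, and Mecom, Gata6, Rundc3b and Myrf lie at lower left.

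H3K27me3 was low throughout, so its ratios rest on small values. The median KO over WT ratio was 0.40 over 554 genes whose pair mean reached the floor, against 0.18 over all genes, and the other 147 had too little signal for a ratio. It was 0.17 with 5 times the pseudocount, 0.22 after quantile normalization and 0.23 when centred on all genes. At least 2-fold higher in KO were 142 (25.6%, against 15.4% of all genes measured), and 34 were at least 2-fold lower (6.14%, against 6.92%). WT H3K27me3 was capped by the rule, and the genes between the top 5% and the top 10% of both WT libraries had a median of 0.39. Polr2a, the largest subunit of RNA polymerase II, had H3K27me3 of 8.90 in KO and 0.33 in WT, and Xpo1, the nuclear export receptor, had 9.235 in KO and 0.55 in WT. These KO values lie far under the top 10% of KO H3K27me3, which began at 27.3. Only Mecom, Cldn3, Pard6b, Gata6 and Gata6os among the selected genes (0.713%) reached it, against 2.11% of all genes under the WT limit. In the other direction, Steap2 had 4.62 in KO and 23.6 in WT, and Gdf15, a stress-induced cytokine of the TGF-beta family, had 0.66 in KO and 7.67 in WT. Steap2 lies at 3 to 9 Mb of chromosome 5, where the median H3K27me3 ratio was -0.46 over 33 genes.

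H3K36me3 over gene bodies is the mark that Setd2 places. Among selected genes of 20 kb or more, the median KO over WT ratio was -0.04 over 222 measured genes, against -0.09 over all genes of that span. At least 2-fold higher in KO were 24 genes (10.8%, against 8.04% of all such genes), and 29 were at least 2-fold lower (13.1%, against 10.9%). The authors' scaling is not stated, so a loss shared by the whole KO library cannot be seen in these values. For Hagh, a glyoxalase of the methylglyoxal pathway, the KO value was listed at 0, against 24.1 in WT. Cyp51, the sterol demethylase of cholesterol synthesis, had 4.44 in KO and 29.8 in WT, and Cldn12, a claudin, had 5.96 in KO and 25.6 in WT. Cyp51 and Cldn12 both lie at 3 to 9 Mb of chromosome 5. The median H3K36me3 ratio of that stretch was -0.6 over 35 genes of any span, so their lower values are not particular to them. Toward higher KO signal, Trim47, a ubiquitin ligase, had 33.9 in KO, whereas WT was listed at 0. Ube2v1, a ubiquitin-conjugating enzyme variant, had 19.7 in KO and 2.27 in WT, and Cttn, the actin-binding protein cortactin, had 15.3 in KO and 1.93 in WT.

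Within KO, the settings were compared in libraries that did not enter the rule. KO signal ranked much as WT signal did, however, with rank correlations over all genes of 0.93 in the vitro pair and 0.85 in the unlabelled pair. The median log2 ratio of KO vitro over KO without the label was 0.18, against -0.11 over all genes, and 0.05 after quantile normalization. At least 2-fold higher in KO vitro were 46 genes (6.56%, against 6.89% of all genes measured), and 9 were at least 2-fold lower (1.28%, against 12.6%). The median of this ratio differed with the WT choice. It was 0.44 for genes in the top 5% of WT vitro only and -0.28 for those of the unlabelled WT library only. For genes between the top 5% and the top 10% of both WT libraries it was -0.02. At least 2-fold lower in KO vitro were 1.47%, 6.71% and 1.85% of these sets, in the order given. Muc1 had 138 in KO vitro and 42.7 in KO without the label. Id1, an inhibitor of bHLH factors induced by BMP signalling, had 94.9 in KO vitro and 34.0 in KO without it, and WT stood at 129 and 36.5. Toward lower vitro signal stood Hgfac, Pard6b, Esrp2, Cables2 and Kat6b. Kat6b, a histone acetyltransferase, had 38.1 in KO vitro and 78.5 in KO without the label. Ranks within the set were looser than over all genes: the rank correlation between the settings was 0.57 in KO and 0.38 in WT over the 701 genes, against 0.87 and 0.86 over all genes, and the selected range is narrow.

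The selected genes were spread unevenly over the chromosomes. Chromosome 11 held 141 of them (20.1%, with 7.37% of all genes), so that 7.58% of its genes were selected. The share was 5.77% on chromosome 3, 5.30% on chromosome 19 and 5.20% on chromosome 17, but 0.702% on chromosome 12, 0.832% on chromosome 13, 0.871% on chromosome 9 and 1.13% on chromosomes 1 and 4. None of the 1098 genes of the X chromosome was selected. Of the 702 genes that the rule chose in KO, 19.7% were on chromosome 11 and 1 was on the X chromosome. Chromosome 11 was also above all genes in the other marks: its median H3K27me3 was 5.0 in KO and 4.28 in WT, against 3.85 and 3.23 over all genes, and its H3K36me3 was 4.39 in KO and 3.92 in WT, against 3.0 and 2.72. Chromosome 15 had H3K27me3 of 5.88 in KO and 4.93 in WT and H3K36me3 of 4.2 in KO and 3.71 in WT, with 3.73% of its genes selected. Chromosomes 3, 19 and 17, next after 11 in share, were nearer to all genes in H3K27me3. It was 3.74, 3.85 and 4.01 in KO and 3.62, 3.29 and 3.62 in WT. Their H3K36me3 was 3.12, 3.84 and 3.76 in KO and 3.69, 3.49 and 3.55 in WT. DNA copy number was not measured, and its part in these shares was not tested. After each autosomal value was divided by the median of its chromosome, the rule chose 662 genes, of which 387 were among the 701 (55.2%), and 4.08% of the 662 were on chromosome 11.

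**Figure D4:**
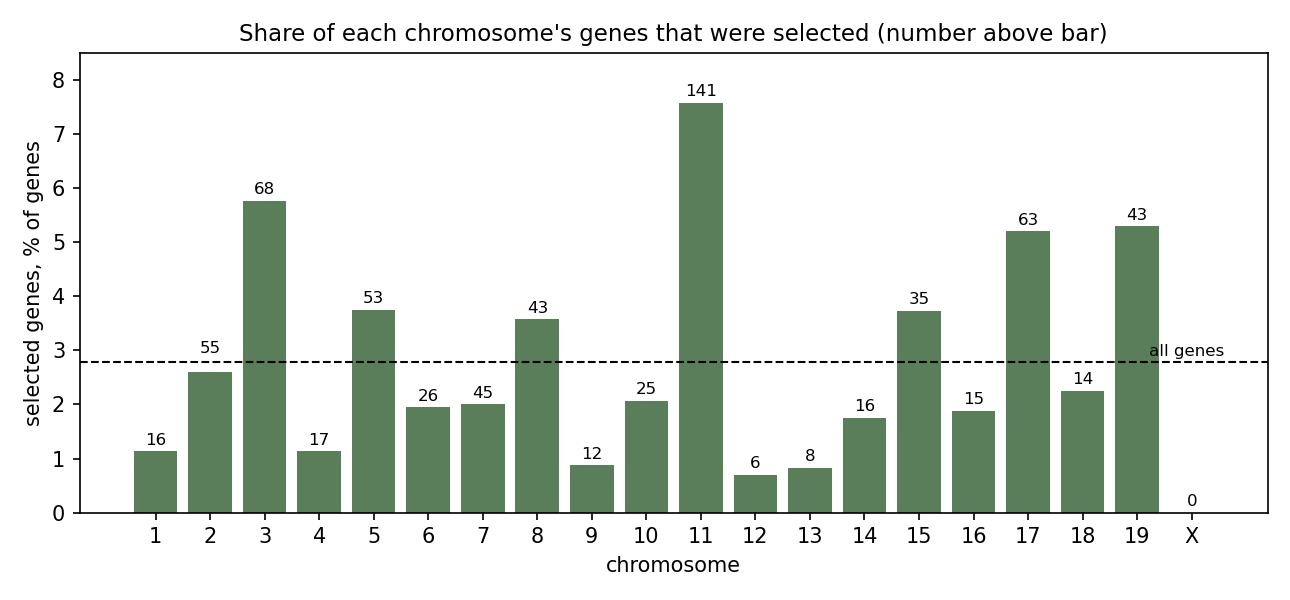
Share of each chromosome's genes that was selected, in percent, with the number of selected genes above each bar and a dashed line at the share of all genes (2.78%). Chromosome 11 had the highest share (7.58%, 141 genes) and the X chromosome had none.

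Chromosomes also differed between the genotypes in the vitro pair. The median KO over WT ratio of the selected genes was 0.45 on chromosome 1 (16 genes), -0.34 on chromosome 3 (68 genes) and -0.76 on chromosome 18 (14 genes), and that of the genes not selected was 0.38, -0.36 and -0.43 on the same chromosomes. Selected and other genes of these chromosomes had ratios of the same sign, and the cause was not tested. In the same pair Mecom, on chromosome 3, had a ratio of -1.75 and Gata6, on chromosome 18, one of -0.86. The H3K27me3 ratio was 1.80 for Mecom and 1.06 for Gata6. The medians of the selected genes were 0.39 on chromosome 3 (54 genes) and 1.06 on chromosome 18 (11 genes), and those of the genes not selected were 0.00 and -0.05. Gata6 and Gata6os, which share a promoter, are among these 11 genes, so the chromosome 18 median is no separate benchmark for Gata6.

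The start of chromosome 5, from 3 to 9 Mb, was picked after the values were seen. It held 37 genes, of which 10 were selected (27%), among them Cdk6, Cyp51, Fzd1, Cldn12, Steap2 and Rundc3b. Over all 37 genes median vitro H3K27ac was 41.7 in KO and 89.3 in WT, against 6.69 and 6.90 over all genes of the table. The median log2 ratio was -1.10 over the 10 selected genes and -0.97 over the 27 others. Without the vitro label the medians of the 37 genes were 19.4 in KO and 18.5 in WT. Their median H3K27me3 was 6.21 in KO and 9.59 in WT, and their median H3K36me3 was 6.37 in KO and 13.3 in WT. All 3 marks were thus higher there than over all genes in both genotypes. As deposited, they were lower in KO than in WT except for H3K27ac without the label. Without the label the median log2 ratio of the 37 genes was 0.06, against 0.32 over all genes and 0.27 from 18 Mb onward. It was -0.25 over 26 genes from 9 to 18 Mb. Relative to all genes, KO was thus lower there in the unlabelled pair too, though by less than in the vitro pair. From 9 to 18 Mb, where 1 of 37 genes was selected, the median vitro ratio was -1.12 over 31 genes, with median signals of 3.89 in KO vitro and 11.4 in WT vitro, and the median H3K27me3 ratio was -1.14. The lower KO signal thus extended past the first stretch. From 18 Mb onward the median vitro ratio was -0.14. Cyp51 shows the larger difference in the vitro pair, with H3K27ac of 46.7 in KO vitro and 206 in WT vitro. Without the label it had 48.96 in KO and 50.1 in WT. Cldn12 had 73.2 in KO vitro and 202 in WT vitro, and 26.5 in KO and 33.0 in WT without it. Fzd1, a Wnt receptor in the same stretch, had 117 in KO vitro and 123 in WT vitro, so not every gene there differed in vitro H3K27ac. Its other marks were lower in KO, with H3K27me3 of 13.0 in KO and 23.1 in WT. Its H3K36me3 was listed at 0 in KO, against 18.1 in WT. DNA copy number was not measured, and its part in the rank of Cdk6 and Steap2 or in these ratios was not tested.

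**Figure D5:**
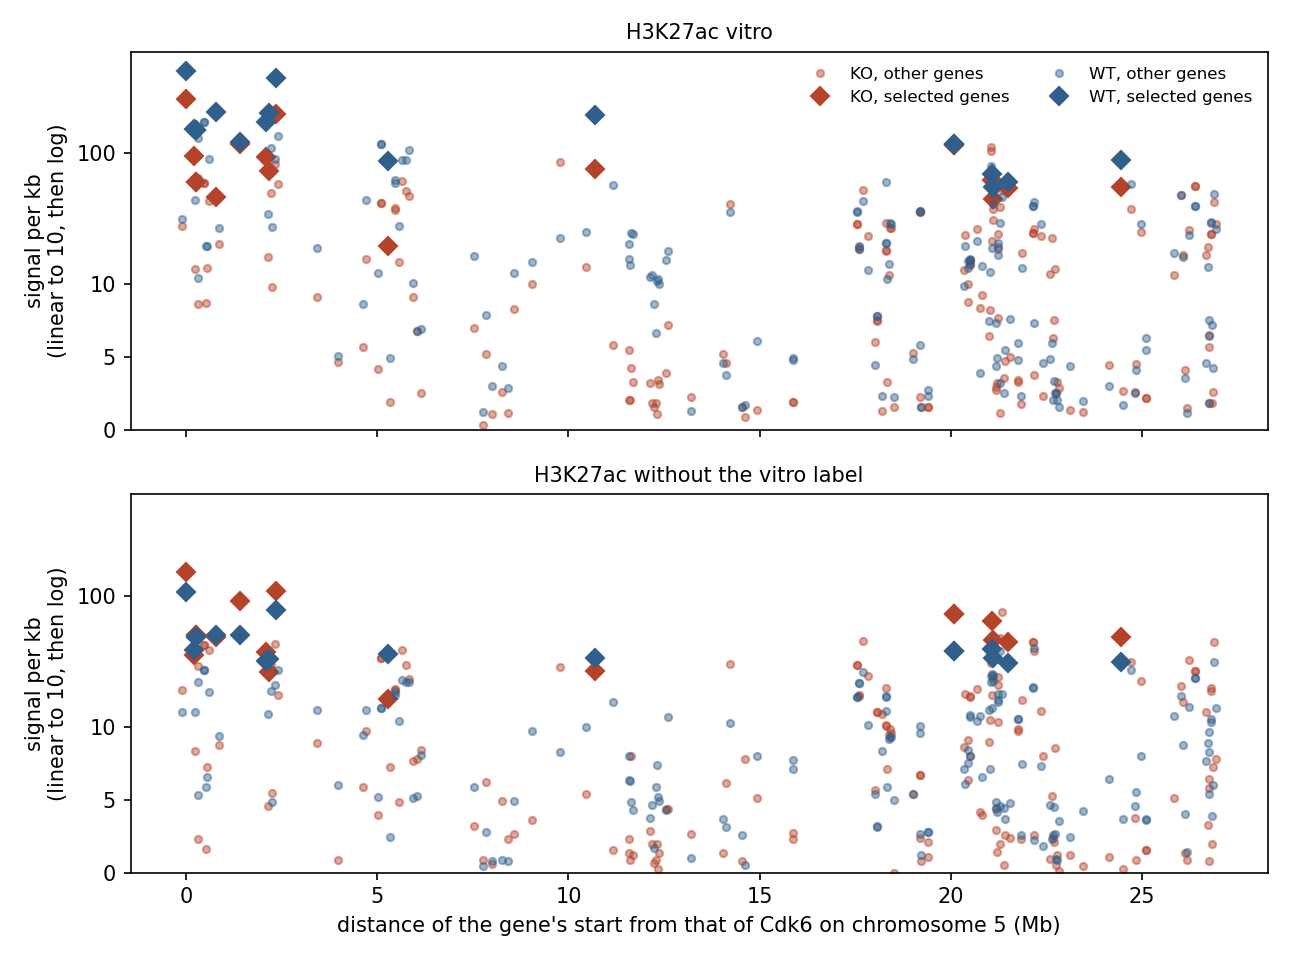
H3K27ac signal per kb at the start of chromosome 5 by distance from the start of Cdk6, in the vitro pair (top) and in the pair without that label (bottom), with diamonds for selected genes and circles for other genes. In the top panel, the KO values lie below WT for most genes near Cdk6, where the 37 genes of the first stretch had medians of 41.7 in KO and 89.3 in WT. In the bottom panel their medians were 19.4 in KO and 18.5 in WT as deposited. Their median log2 ratio in that pair was 0.06, below the 0.32 of all genes.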

How the data were processed

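CUT&Tag libraries of 3 histone marks, 1 per group, were analysed from the table the authors deposited. Its 8 columns are signal: mean coverage per base of each promoter or gene body, scaled by the authors with a factor not given in the sources used here, and printed here per kb (times 1000). The submitters' processing notes name the build mm10 and, as software, MACS2 2.2.7.1, Bowtie2 2.4.2 and HOMER. At least 99.96% of the promoter values of each library are whole hundredths after multiplication by 6000, so the window is taken as 6000 bases or a divisor of it. The files give no read counts, so depth is unknown and counting error cannot be given.

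Rows of the same gene were joined by the highest mean. Ratios are log2((KO + floor)/(WT + floor)), for genes whose pair mean reached the floor (3.29, 2.18, 1.53 and 2.65 per kb for the unlabelled and the vitro H3K27ac pair, H3K27me3 and H3K36me3, and 2.30 for the KO settings). The added floor understates differences of low genes. Grouping followed the sample titles. No test was possible on single libraries; counts and medians stand beside those of all genes. The code was tested on simulated data. The selected genes, the 30 gene lists and all comparisons were chosen with earlier results of these data known.

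Named genes, leaving out predicted, clone, pseudogene and small RNA symbols, were the 12 highest by WT rank, the 6 highest and 6 lowest KO over WT ratios of each mark and setting (H3K36me3 in genes of 20 kb or more), the 5 highest and 5 lowest KO vitro over other ratios, up to 5 per list by rank, the 5 rows on each side of the threshold, and the 6 lowest by KO rank in each setting; others are marked or belong to a count. Of the rows, 25222 carried a current symbol, 113 an older one and 115 none of the RefSeq names used. Promoter and microRNA sequences are RefSeq's. Alternatives were other pseudocounts, filters, scalings, thresholds and gene sets. Python 3.11.15, pandas 2.3.3, numpy 2.4.6 and scipy 1.17.1 were used.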

Additional observations from a re-analysis of the deposited data

Results flagged for a closer look

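On the authors' scale, 4 of the genes named by rank or ratio differed in direction between the pairs. At these, KO exceeded WT by 1.5-fold or more in the unlabelled pair and was lower by as much in the vitro pair. The difference between the settings was not tested. In the unlabelled pair the median ratio of the 701 genes was 0.57 as deposited and -0.15 after quantile normalization. The unlabelled ratios and counts given here are therefore read on the authors' scale only. Brd2, a bromodomain reader of acetylated histones, had a log2 KO over WT ratio of 0.91 in the unlabelled pair and -0.98 in the vitro one, with H3K27ac of 126 in KO and 65.7 in WT, and 66.7 in KO vitro and 134 in WT vitro. Kat6b had 0.97 without the label and -0.60 in vitro. Acadm, a dehydrogenase of medium-chain fatty acid oxidation, had 0.75 without the label and -1.0 in vitro. Cables2 had 0.74 without the label and -1.17 in vitro. Of the 701 genes, 15 exceeded WT by 1.5-fold or more in KO without the label and were lower by as much in KO vitro (2.14%, against 2.78% of all genes with both ratios), and 0 the other way round (against 0.694%).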

How the results depend on the processing

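No paired analysis was possible because each group had 1 library. A median was counted as unchanged within 0.1 on the log2 scale. The median KO over WT ratio of H3K27ac without the vitro label (0.57) became 0.45 with 5 times the pseudocount, 0.26 when centred on all genes, -0.15 after quantile normalization and 0.89 for the genes that the rule chose in the KO libraries, and stayed within 0.1 in 10 of 15 alternatives. The vitro median (-0.06) was 0.14 for the genes chosen in KO and within 0.1 in the other 14 alternatives. The H3K27me3 median (0.40) was 0.55 and 0.17 with pseudocounts 5 times smaller and larger, 0.23 when centred and 0.22 after quantile normalization. The H3K36me3 median stayed within 0.1 in all 16 alternatives tried. The KO vitro over other median (0.18) was 0.30 when centred and 0.05 after quantile normalization. A top 2.5% selected 316 genes, 88.0% of them in the top 5% of both KO libraries, and a top 10% selected 1606, with 36.1%. Alternatives added after the data were seen gave 0.23 for H3K27ac without the label and 0.23 for H3K27me3 with ratios centred within each chromosome. Dividing by chromosome medians before the choice gave 0.06 for the KO settings and 44.7% in the top 5% of both KO libraries. The cause of these shifts was not tested. Unknown depth and scaling limit every ratio, and values of overlapping windows are not separate.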

Other observations

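Among small RNA hosts, Mir22hg had H3K27ac of 122.1 in KO and 68.3 in WT, and 181 in KO vitro and 146 in WT vitro. Malat1, a nuclear long non-coding RNA gene beside Neat1, had 63.5 in KO and 34.8 in WT, and 82.4 in KO vitro and 62.6 in WT vitro. Among stress genes, Sqstm1, the autophagy receptor p62, had 103 in KO and 55.2 in WT, and 144 in KO vitro and 170 in WT vitro. Atf4, the effector of the integrated stress response, had 68.0 in KO and 34.3 in WT, and 81.8 in KO vitro and 81.5 in WT vitro, with H3K36me3 of 100.4 in KO and 119 in WT. Vim, the intermediate filament gene of mesenchymal cells and of many tumour lines, had 72.6 in KO and 32.0 in WT, and 115 in KO vitro and 88.0 in WT vitro. Brpf1, a subunit of histone acetyltransferases with a PWWP domain that binds H3K36me3, was the 1 selected gene of 24 H3K36 methylation writers, erasers and readers, with 67.9 in KO and 63.4 in WT, and 72.5 in KO vitro and 65.5 in WT vitro.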
